A study of Mus musculus with 57 samples.

Results

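The complement components and regulators described here are the genes C1qa, C1qb, C1qc, C2, C3, C4b, Cfb, Cfi and Cd55, a list of 9 chosen by name. A gene was read from the probe set that the array's probe table pairs with its symbol alone, and from the brightest where there were several. Of the 9 genes, 8 were read, each from 1 probe set, among 22180 genes in all. C3 is not analysed here.

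Complement is a cascade of plasma and tissue proteins that coats targets with fragments of C3 and C4, draws in leukocytes and can end in a membrane pore. The classical pathway starts when C1q binds antibody or dying cells, and the alternative pathway amplifies C3 cleavage through factor B. Host cells are protected by inhibitors that cleave the deposited fragments or take the convertase enzymes apart. In the gut, complement proteins are made by the liver and also locally, by macrophages, stromal cells and epithelium.

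RNA from distal colon and from colon tumors of C57BL/6 mice aged 18 to 24 weeks was measured on 57 whole-transcript arrays, and the treatment protocol names female littermates. INSRfl/fl mice (fl/fl below) carry a floxed insulin receptor gene, and villin-CRE-INSR-/- mice (knockout below) carry it too but have lost the receptor where villin-CRE is active, in the intestinal epithelium. Both genotypes were left untreated (10 samples each) or were given AOM, a colon carcinogen (7.4 mg/kg by injection), and then 3% DSS, which injures the epithelium, for 7 days in week 2. Colon (10 samples of each genotype) and tumors (8 fl/fl and 9 knockout) were taken from treated mice in week 5. The labels call the samples biological replicates, name no animals and do not tie a tumor to a colon sample. Values are log2 expression values, and levels of different genes are not comparable because their probe sets respond differently.

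The deleted gene checks the labels: Insr stood below its fl/fl level in the knockout groups, in untreated colon (at 52.3% of that level), in AOM+DSS colon (55.8%) and in tumors (63.6%), with adjusted p values from limma between 6.71e-09 and 0.00234. Array medians lay between 5.92 and 6.04. The mean of 11 epithelial markers, such as Epcam and Vil1, lay between 10.7 and 11.5 over all samples; 6 of the 11 were lower in fl/fl and 7 in knockout tumors than in AOM+DSS colon, where 1 was higher in each, and the group means of the list were 11.27 and 11.06 in fl/fl and 11.22 and 10.93 in knockout AOM+DSS colon and tumors. The mean of 6 smooth muscle markers fell from a group mean of 12.6 (fl/fl) and 12.4 (knockout) in AOM+DSS colon to 10.97 and 10.86 in tumors. In bulk samples, fewer cells of a type and less RNA per cell cannot be told apart.

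After AOM+DSS, 7 of the 8 genes rose in fl/fl colon and the same number rose in knockout colon, while no gene of the list fell. Across all genes tested, 12.2% rose and 10.5% fell in fl/fl colon, and 16% rose and 14.2% fell in knockout colon (limma, Benjamini-Hochberg adjusted p under 0.05, used throughout). The median change of the 8 genes was 0.67 in fl/fl and 0.68 in knockout colon, and that of all genes was -0.04 in each. Shifting the arrays to 1 median moved the share of calls that were rises from 53.8% to 36.1% in fl/fl colon and from 52.9% to 41.9% in knockout colon, and a further quantile normalization gave 43% in fl/fl colon. The exception in both genotypes was Cfi. Markers of several other cell types rose as well: all 9 neutrophil markers in each genotype, 5 and 7 of 7 T cell markers, 3 and 4 of 5 endothelial markers and 5 of 7 measured squamous epithelium markers in each. The neutrophil list mean ran from 6.00 to 6.28 in untreated and 6.22 to 8.72 in treated fl/fl colon, and from 5.85 to 6.28 and 6.55 to 8.80 in knockout colon. Of 8 NF-kappaB response genes, 2 rose in fl/fl and 7 in knockout colon. The part of these cells and responses in the complement changes was not tested.

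The C1q genes encode the 3 chains of C1q, the recognition protein of the classical pathway. They lie side by side on chromosome 4 (GRCm38.p6): C1qb at chr4:136880126-136886200, C1qc at chr4:136889801-136892936 and C1qa at chr4:136895916-136898844, a stretch of 18719 bases. Because these neighbours varied together between samples, the RefSeq sequence upstream of their start sites is shown where it was held, on the minus strand of GRCm38.p6, for C1qb at chr4:136886201-136886450 and for C1qc at chr4:136892937-136893164. Capitals mark the match to the myeloid PU.1 motif in C1qc.
C1qb: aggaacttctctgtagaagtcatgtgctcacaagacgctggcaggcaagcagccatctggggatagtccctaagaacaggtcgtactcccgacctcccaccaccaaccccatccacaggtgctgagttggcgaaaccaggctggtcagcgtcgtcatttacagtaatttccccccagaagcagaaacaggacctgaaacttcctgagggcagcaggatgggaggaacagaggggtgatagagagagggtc
C1qc: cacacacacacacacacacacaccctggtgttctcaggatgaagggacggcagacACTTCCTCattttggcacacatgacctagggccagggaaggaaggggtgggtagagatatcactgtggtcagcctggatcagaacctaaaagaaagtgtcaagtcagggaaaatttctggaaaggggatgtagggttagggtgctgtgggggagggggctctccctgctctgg

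For the regulators known from myeloid, inflammatory and Wnt biology, 6 motifs were searched on both strands of the 250 bases before the RefSeq start: NF-kappaB (GGANTTTCC), the STAT GAS element (TTCNNNGAA), the interferon-stimulated element (GAAANNGAA), C/EBP (TTGCNNAA), TCF/LEF (ATCAAAG) and PU.1 (GAGGAAGT). The C1qc window held 1 match, PU.1 on the opposite strand, 195 to 188 bases before the start. That start lies 22 bases inside the listed span of C1qc, so the printed sequence ends 22 bases short of it. Of 32851 windows of this length, 2.44% held that motif, 1.07% the NF-kappaB motif, 7.02% the GAS element, 7.13% the interferon-stimulated element, 9.56% the C/EBP motif and 3.21% the TCF/LEF motif. The windows of C1qb and Cd55 held none of these letters, and that of Cd55 (chr1:130462745-130462994) lies inside the gene's listed span.

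C1qa ran from 8.32 to 9.13 (median 8.64) in untreated fl/fl colon and from 9.18 to 9.84 (median 9.44) after AOM+DSS. In knockout colon it ran from 8.61 to 9.26 (median 8.91) untreated and from 9.41 to 9.97 (median 9.66) after AOM+DSS. Treated and untreated samples did not overlap in either genotype. The rise was 0.76 ± 0.088 (SE, 1.69-fold, adjusted p = 5.75e-09) in fl/fl and 0.77 ± 0.088 (1.70-fold, adjusted p = 6.32e-10) in knockout colon.

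C1qb rose by 0.91 ± 0.10 in fl/fl colon (1.88-fold, adjusted p = 1.61e-09), from a median of 9.85 (9.61 to 10.3) to 10.8 (10.3 to 11.2). In knockout colon it rose by 0.86 ± 0.10 (adjusted p = 1e-09), from a median of 10.1 (9.69 to 10.7) to 11.01 (10.8 to 11.3). All 10 treated knockout samples were above every untreated one, against 9 of 10 in fl/fl colon. C1qc rose by 0.66 ± 0.10 (adjusted p = 1.84e-06) and 0.65 ± 0.10 (adjusted p = 8.05e-07), and its treated and untreated ranges overlapped in both genotypes.

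Of 13 measured macrophage markers, a list that holds no complement gene, 11 rose after AOM+DSS in each genotype, among them Ms4a7, Cd68 and Fcer1g. The list mean lay between 8.01 and 8.51 in untreated and 8.62 and 9.28 in treated fl/fl colon, and between 8.10 and 8.68 and between 8.86 and 9.35 in knockout colon. With this mean as a covariate the C1qa change was 0.02 ± 0.088 in fl/fl and -0.06 ± 0.096 in knockout colon, but the same covariate left only 4 and 6 genes of the whole array called. The part of macrophage RNA in these rises was not tested further.

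C4b encodes complement C4, which C1s cleaves so that its larger fragment can bind to surfaces (chr17:34728139-34743902). It ran from 8.12 to 8.96 (median 8.74) in untreated fl/fl colon and from 8.99 to 10.3 (median 9.57) after AOM+DSS. In knockout colon the ranges were 8.10 to 9.47 (median 9.13) and 9.74 to 10.2 (median 10.0). Neither pair of ranges overlapped, and the rises were 0.88 ± 0.16 (1.85-fold, adjusted p = 4.76e-05) in fl/fl and 0.95 ± 0.16 (1.93-fold, adjusted p = 5.62e-06) in knockout colon. The neighbouring copy C4a, whose near-identical sequence makes the reading of either gene uncertain, had group means between 4.34 and 4.67 on its own probe set, not shown to be above background, and was not called in any comparison.

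C2 and Cfb encode the serine proteases that form the classical and alternative C3 convertases, and they are neighbours with 87 bases between them (Cfb at chr17:34856374-34862514, C2 at chr17:34862602-34882100). C2 rose by 0.68 ± 0.16 in fl/fl colon (1.61-fold, adjusted p = 0.000971) and by 0.57 ± 0.16 in knockout colon (1.49-fold, adjusted p = 0.00344). Its untreated group means, 5.70 in fl/fl and 5.86 in knockout colon, were above 36.0% and 38.7% of all genes. They lay below the median of every array, so that level is not shown to be above background and these rises may be lower bounds. In fl/fl colon 9 of 10 treated samples were above the highest untreated one, and in knockout colon 5 of 10 were.

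Cfb ran from 9.48 to 9.79 (median 9.66) in untreated and 9.69 to 10.0 (median 9.86) in treated fl/fl colon, and from 9.17 to 9.73 (median 9.55) and 9.75 to 10.2 (median 9.96) in knockout colon. The knockout ranges did not overlap, and the rise was 0.46 ± 0.081 (1.37-fold, adjusted p = 9.4e-06). In fl/fl colon the rise was 0.22 ± 0.081 (1.16-fold, adjusted p = 0.0447). That call was lost when the arrays were shifted to 1 median (adjusted p = 0.0932) or quantile normalized again (0.119). It was also lost without any 1 of 11 samples, namely fl/fl untreated replicates 1, 4, 5, 6, 7 and 9 and fl/fl AOM+DSS replicates 2, 3, 4, 6 and 7, with a change of at least 0.195 and an adjusted p of up to 0.0889.

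Cd55, or decay-accelerating factor, is a membrane-anchored protein that dissociates the C3 convertases (chr1:130429798-130465009). In fl/fl colon it ran from 8.77 to 9.28 (median 8.88) untreated and from 9.08 to 9.82 (median 9.27) after AOM+DSS, a rise of 0.44 ± 0.13 (1.35-fold, adjusted p = 0.00997) with overlapping ranges. In knockout colon it ran from 8.07 to 9.30 (median 9.08) and from 9.42 to 9.99 (median 9.67), a rise of 0.72 ± 0.13 (1.64-fold, adjusted p = 1.2e-05) with no overlap. The near-identical neighbour gene Cd55b, which makes the reading uncertain, had group means between 4.60 and 4.87 on its own probe set.

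**Figure D1:**
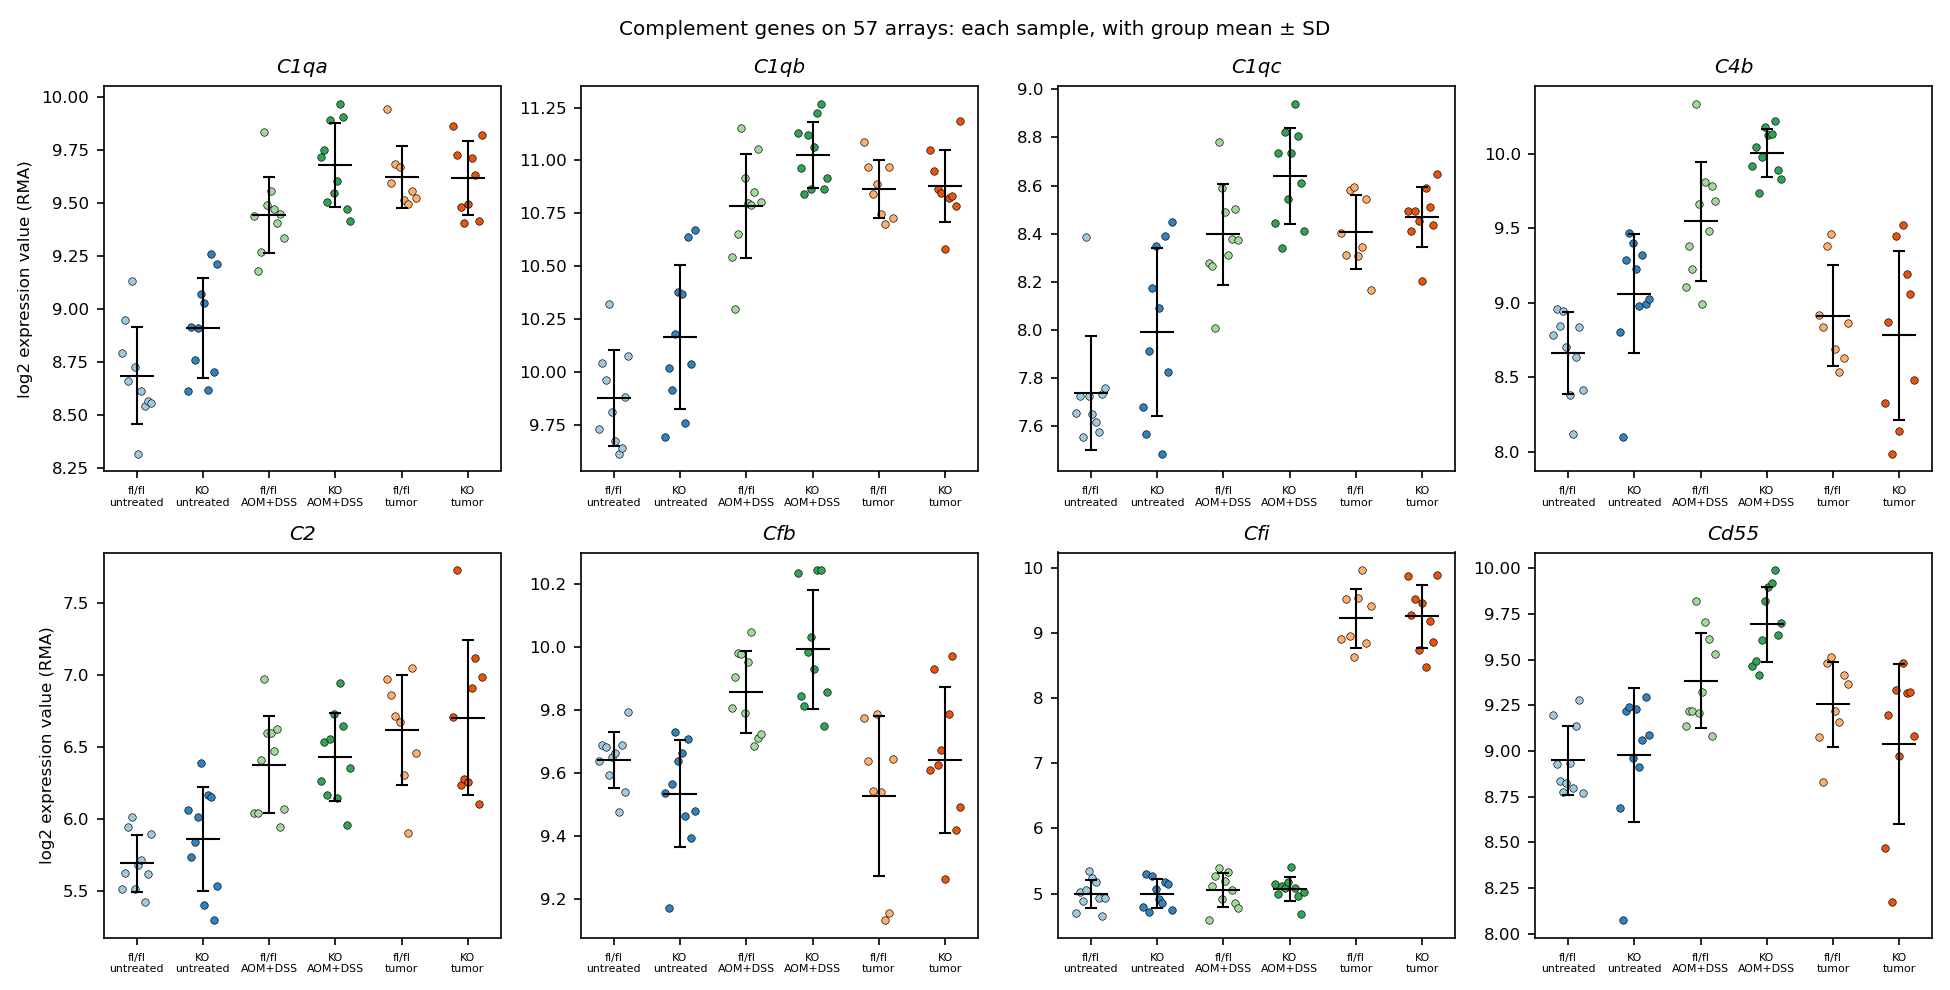
Log2 expression value (vertical axis) of the 8 complement genes in each of 57 samples, by genotype and condition; bars give the group mean ± SD, and each panel has its own axis. All 10 treated samples lie above all untreated ones for C1qa and C4b in both genotypes, and Cfi is at most 5.41 in every colon sample and at least 8.49 in every tumor.

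Of 11 fibroblast markers, 8 rose after AOM+DSS in each genotype, led by Col1a2, Col3a1 and Col1a1. The list mean was 9.28 to 9.75 in untreated and 9.56 to 10.5 in treated fl/fl colon, and 9.40 to 9.77 and 9.95 to 10.3 in knockout colon. With this mean as a covariate, a setting chosen after seeing the data, the C4b change was 0.26 ± 0.14 (adjusted p = 0.285) in fl/fl and 0.04 ± 0.16 (adjusted p = 0.955) in knockout colon. The same covariate cut the calls over all genes from 5044 to 1358 and from 6692 to 1636. Of 7 measured interferon-gamma response genes, which include Ido1 and Gbp3, 6 rose in fl/fl and 5 in knockout colon. The part of either list in the changes of C4b, C2, Cfb and Cd55 was not tested further.

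Cfi encodes complement factor I, the plasma protease that cuts C3b and C4b into inactive fragments (chr3:129836727-129875332). In AOM+DSS colon it was 0.06 ± 0.14 above the untreated level in fl/fl (adjusted p = 0.793) and 0.07 ± 0.14 in knockout mice (adjusted p = 0.737). The 95% intervals ran from -0.22 to 0.33 and from -0.20 to 0.35. In the colon groups its mean was above only 24.0% to 26.3% of all genes and below the median of every array, so the probe set is not shown to be above background there, and a change beneath it would not be seen.

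The measured difference between tumors and colon was larger for Cfi than for any other complement gene read. It ran from 4.59 to 5.39 (median 5.08) in fl/fl and from 4.69 to 5.41 (median 5.09) in knockout AOM+DSS colon. In tumors it ran from 8.63 to 9.97 (median 9.18) in fl/fl and from 8.49 to 9.88 (median 9.28) in knockout samples. The lowest of 17 tumors was thus above the highest of all 40 colon samples, treated or not.

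The difference between tumors and AOM+DSS colon was 4.17 ± 0.15 in fl/fl samples (adjusted p = 1.7e-31) and 4.19 ± 0.14 in knockout samples (adjusted p = 2.54e-32). Since the colon level may be background, these are lower bounds, at least 18.0-fold and at least 18.2-fold. Against untreated colon, whose arrays are others but whose tumor arrays are the same, Cfi was 18.8-fold and 19.1-fold higher. These estimates may be lower bounds too. The difference from AOM+DSS colon kept its call under every setting run, with the smallest values, 3.23 ± 0.24 and 3.27 ± 0.24, when the smooth muscle list mean was a covariate chosen after seeing the data.

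All 10 Wnt target genes measured, Notum, Wif1 and Prox1 among them, were also higher in tumors of both genotypes. Their list mean was 7.08 to 7.69 in AOM+DSS colon and 9.98 to 10.8 in tumors. Because factor I in plasma comes from the liver, 8 hepatocyte markers were read: in tumors of each genotype 1 was higher and 2 were lower than in AOM+DSS colon. The marker that was higher was Alb (2.85 ± 0.26 in fl/fl and 2.41 ± 0.25 in knockout tumors), Ttr and Cyp2e1 were the ones that fell, and the list mean stayed between 6.19 and 7.07 in tumors against 6.01 to 6.83 in AOM+DSS colon. The part of these genes in the Cfi difference was not tested.

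Apart from Cfi, no gene of the list was called higher in tumors than in AOM+DSS colon. C4b and Cfb were lower in fl/fl tumors, and C4b, Cfb and Cd55 were lower in knockout tumors. Across all genes, 21% were higher and 20.2% lower in fl/fl tumors, and 21.5% and 21.4% in knockout tumors, so 3 and 4 of 8 genes called are close to these shares.

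C4b was lower by 0.63 ± 0.17 in fl/fl tumors (1.55-fold, adjusted p = 0.00194), where it ran from 8.53 to 9.46 (median 8.85). It was lower by 1.23 ± 0.17 in knockout tumors (2.34-fold, adjusted p = 9.19e-09), where it ran from 7.98 to 9.52 (median 8.87). Every knockout tumor was below every knockout AOM+DSS colon, and 6 of 8 fl/fl tumors were below every fl/fl AOM+DSS colon. Knockout tumors also spread most, with an SD of 0.57 against 0.16 in the knockout AOM+DSS colon; the spreads were not compared by a test.

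Cfb fell by 0.33 ± 0.086 in fl/fl (adjusted p = 0.00111) and by 0.35 ± 0.083 in knockout tumors (adjusted p = 0.000336). It ran from 9.13 to 9.79 (median 9.59) in fl/fl and from 9.27 to 9.97 (median 9.63) in knockout tumors, ranges that overlapped those of untreated colon. Cd55 fell by 0.66 ± 0.13 in knockout tumors (adjusted p = 3.17e-05), where 8 of 9 samples were below every AOM+DSS sample. In fl/fl tumors its difference was -0.13 ± 0.14 (adjusted p = 0.494).

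The fibroblast list mean was 9.35 to 9.73 in fl/fl and 8.99 to 9.92 in knockout tumors, with 8 and 9 of its 11 markers lower than in AOM+DSS colon, and all 6 smooth muscle markers were lower in both genotypes. With the fibroblast mean as a covariate the C4b difference was -0.04 ± 0.14 (adjusted p = 0.863) in fl/fl and -0.15 ± 0.18 (adjusted p = 0.614) in knockout tumors. With the smooth muscle mean it was 0.30 ± 0.30 (adjusted p = 0.652) and -0.32 ± 0.29 (adjusted p = 0.598). Both settings were chosen after seeing the data, and the C4b call was lost under each of them. The smooth muscle mean was at most 11.44 in fl/fl and 11.63 in knockout tumors, and at least 12.195 and 12.06 in AOM+DSS colon. In knockout samples the fibroblast mean was at most 9.92 in tumors and at least 9.95 in AOM+DSS colon. Where the covariate does not overlap between the groups, the fit cannot separate it from the tumor difference. Over all genes the calls went from 9143 to 7713 in fl/fl and from 9511 to 5859 in knockout samples with the fibroblast mean, and to 2268 and 2422 with the smooth muscle mean.

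The 3 C1q genes and C2 were not called between tumors and AOM+DSS colon. In fl/fl tumors C1qa was 0.18 ± 0.093 above AOM+DSS colon (adjusted p = 0.118), and this reached 0.22 with an adjusted p of 0.0445 when fl/fl AOM+DSS replicate 4 was left out. The C1qb difference was 0.08 ± 0.11 in fl/fl (95% interval -0.13 to 0.29) and -0.15 ± 0.10 in knockout tumors (-0.35 to 0.06). C2 was 0.24 ± 0.17 and 0.27 ± 0.16 above AOM+DSS colon (adjusted p = 0.268 and 0.182), with the widest range of any group in knockout tumors, 6.11 to 7.73 (median 6.71).

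The macrophage list mean was 8.52 to 8.79 in fl/fl and 8.51 to 8.89 in knockout tumors, below most AOM+DSS colon samples. Within the list Cd163 and Mertk were lower in tumors of both genotypes and Lyz2 was higher in fl/fl tumors. With the list mean as a covariate, C1qa was 0.39 ± 0.059 higher in fl/fl (adjusted p = 1.17e-07) and 0.38 ± 0.068 higher in knockout tumors (adjusted p = 6.97e-06). The list's own markers moved in both directions, with 3 higher and 4 lower of 13 in fl/fl tumors and 1 higher and 8 lower in knockout tumors.

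**Figure D2:**
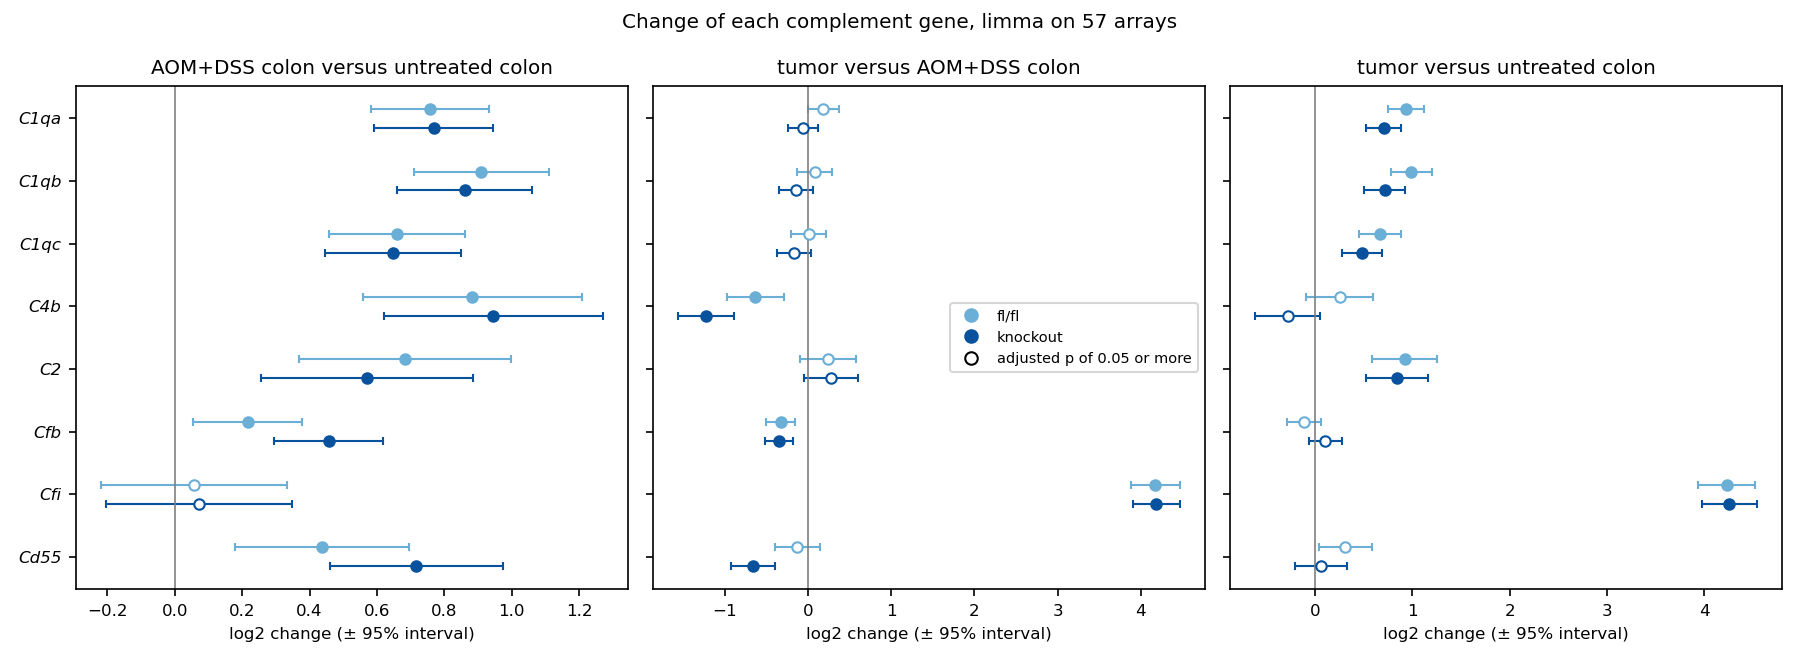
Log2 change (horizontal axis, with its 95% interval) of each complement gene in 3 comparisons, in fl/fl (light) and knockout (dark) samples; open circles did not pass an adjusted p of 0.05. Cfi stands at 4.17 and 4.19 between tumors and AOM+DSS colon, and C4b at -0.63 and -1.23; the comparisons share arrays.

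Tumors were also compared with untreated colon, on arrays shared with the comparisons above. There, tumors of both genotypes had higher C1qa, C1qb, C1qc, C2 and Cfi, 5 of the 8 genes, where 22.9% of all genes were higher and 22.5% lower in fl/fl tumors, and 23.6% and 23.7% in knockout tumors. C1qb was 0.99 ± 0.11 above untreated colon in fl/fl tumors (adjusted p = 8.24e-12) and 0.71 ± 0.10 in knockout tumors (adjusted p = 2.83e-08). C2 was 0.92 ± 0.17 (adjusted p = 4.21e-06) and 0.84 ± 0.16 above it (adjusted p = 1.13e-05). Since its untreated level is not shown to be above background, these C2 values may be lower bounds.

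C4b, Cfb and Cd55 were not called between tumors and untreated colon. C4b was 0.25 ± 0.17 above untreated colon in fl/fl (adjusted p = 0.243) and -0.28 ± 0.17 in knockout tumors (adjusted p = 0.171); without knockout untreated replicate 2, its lowest sample, the knockout difference was -0.39 (adjusted p = 0.0414). Cfb was -0.11 ± 0.086 and 0.11 ± 0.083 (adjusted p = 0.292 and 0.313). Cd55 was 0.31 ± 0.14 in fl/fl tumors (adjusted p = 0.0588) and 0.06 ± 0.13 in knockout tumors (adjusted p = 0.745). The fl/fl value of Cd55 was called without fl/fl untreated replicate 1 or 9, knockout untreated replicate 2, fl/fl tumor replicate 2 or knockout tumor replicate 3, at up to 0.37 (adjusted p down to 0.026).

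Between genotypes no complement gene was called. The background was 0.00451% of genes called in untreated colon, 0.541% in AOM+DSS colon and 0.00902% in tumors by limma, and at an unadjusted p under 0.05 the counts were 4, 5 and 0 of the 8 genes, against 5.02%, 13.1% and 4.46% of all genes. In AOM+DSS colon C4b was 0.46 ± 0.16 higher in knockout samples (adjusted p = 0.16), and all 10 were above the fl/fl median. The same held for C1qb and Cd55, and 9 of 10 were above it for C1qa and C1qc. The share of all genes with such a count was not computed. Without fl/fl AOM+DSS replicate 4, the highest fl/fl sample of C4b, the C4b difference was 0.55 with an adjusted p of 0.0383. Leaving out that sample could only enlarge the difference.

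The C1q genes were higher in knockout AOM+DSS colon by 0.24 each, with adjusted p values between 0.186 and 0.254, and Cd55 by 0.31 ± 0.13 (adjusted p = 0.252). In untreated colon C4b was 0.40 ± 0.16 higher (adjusted p = 0.826), and C1qa, C1qb and C1qc were higher by 0.22, 0.29 and 0.25 (adjusted p between 0.693 and 0.809). The macrophage list mean was 8.35 in knockout and 8.19 in fl/fl untreated colon, and 9.12 and 8.88 after AOM+DSS. With that mean as a covariate, the differences of C1qa, C1qb and C1qc were 0.06, 0.10 and 0.06 in untreated colon and -0.03, -0.05 and -0.06 in AOM+DSS colon, none of them called. The same covariate cut the calls over all genes in AOM+DSS colon from 120 to 2. The part of macrophage RNA in these genotype differences was not tested.

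The responses themselves were compared by interaction. No complement gene, and 0% of all genes, was called for a genotype difference in the AOM+DSS response or in the change from AOM+DSS colon to tumor (limma), with 1 and 2 of the 8 genes at an unadjusted p under 0.05, against 6.09% and 6.63% of all genes. The change of Cd55 into tumors differed by -0.53 ± 0.19 (adjusted p = 0.572) and that of C4b by -0.59 ± 0.24 (adjusted p = 0.652). The Cfb response to AOM+DSS differed by 0.24 ± 0.11 (adjusted p = 0.804). The Cfi change into tumors differed by 0.01 ± 0.20, with a 95% interval of -0.39 to 0.42, measured against colon levels not shown to be above background.

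To see which genes varied together between samples of one group, each value was taken as its distance from its group mean, and the 8 genes were correlated over 57 arrays. These arrays share 1 normalization, and 28 pairs were computed, with permutations within groups and Benjamini-Hochberg adjustment over the pairs. C1qa and C1qb had a Pearson r of 0.80 (Spearman rho 0.75), C1qb and C1qc 0.78 (0.76), and C1qa and C1qc 0.73 (0.70), each with an adjusted permutation p of 7e-05, from a raw p of 1e-05, the smallest that 100000 permutations can give. Without the 2 arrays farthest from the median of the first-named gene, r was 0.77, 0.78 and 0.66. Arrays extreme only in the other gene of a pair were kept.

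C4b and Cd55 had an r of 0.72 (rho 0.63, adjusted permutation p = 7e-05) although they lie on different chromosomes. It was 0.62 without the 2 farthest arrays and between 0.29 and 0.87 within single groups. The neighbours C2 and Cfb had an r of 0.49 (rho 0.44, adjusted permutation p = 0.00238 and 0.00647), and 0.40 without the 2 farthest. Pairs that are not adjacent came as high. C4b and Cfb had an r of 0.49 (adjusted permutation p = 0.00238, and 0.45 without the 2 farthest). C1qc and C4b, on different chromosomes, had 0.48 (adjusted permutation p = 0.000336, and 0.50 without them). Cfi ran against C4b, with an r of -0.43 (rho -0.36, adjusted permutation p = 0.0182 and 0.0289), -0.68 within fl/fl and -0.84 within knockout tumors, and between -0.41 and 0.31 in the colon groups, where Cfi is not shown to be above background. Of the 28 pairs, 16 had an adjusted permutation p for r under 0.05.

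**Figure D3:**
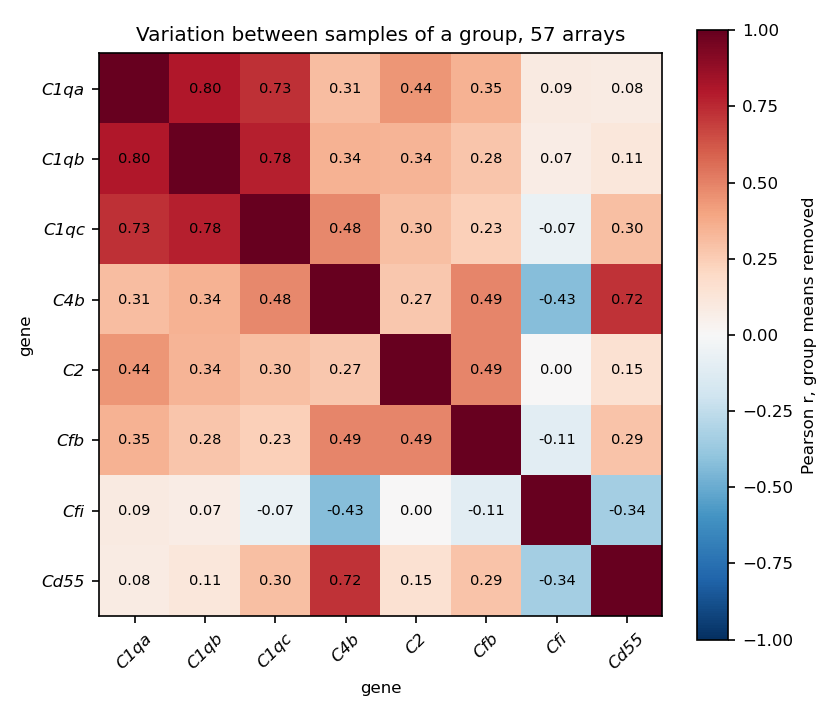
Pearson r between each pair of the 8 complement genes over 57 arrays after removal of group means, as colour from -1 to 1. The C1q genes form 1 block with r from 0.73 to 0.80, C4b pairs with Cd55 at 0.72, and Cfi runs against C4b at -0.43.

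Set against marker list means in the same way (48 relations), C1qa, C1qb and C1qc followed the macrophage list, with r of 0.84, 0.82 and 0.83 (rho 0.83, 0.75 and 0.80, adjusted permutation p = 8e-05 for r and 0.00012 for rho). Without the 2 arrays farthest from the median of the list mean, these r were 0.81, 0.79 and 0.81. For the lists, arrays extreme only in the complement gene were kept. C4b and Cd55 followed the fibroblast list, with r of 0.73 and 0.62 (rho 0.64 and 0.58, adjusted permutation p = 8e-05 for r and 0.00016 for rho), and 0.65 and 0.51 without the 2 farthest. Neither followed that list alone. With the macrophage list, C4b had an r of 0.50 (rho 0.54, adjusted permutation p = 0.000823 and 0.000274, and 0.43 without the 2 farthest) and Cd55 an r of 0.35 (rho 0.38, adjusted permutation p = 0.037 and 0.0235, and 0.30 without them). With the smooth muscle list C4b had an r of 0.45 (rho 0.24, adjusted permutation p = 0.0199 and 0.24, and 0.28 without them). Within single groups that r ran from -0.52 in knockout AOM+DSS colon to 0.90 in knockout tumors. In knockout tumors the fibroblast list gave 0.77 for C4b, and the smooth muscle and fibroblast lists gave 0.88 and 0.85 for Cd55. Of the 48 relations, 18 had an adjusted permutation p for r under 0.05.

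C2 and Cfb followed the interferon-gamma response list, with r of 0.60 and 0.51 (rho 0.60 and 0.54, adjusted permutation p = 8e-05 and 0.00192 for r and 0.00012 and 0.00042 for rho), and 0.54 and 0.48 without the 2 farthest. Within single groups the Cfb value ran from -0.19 in untreated fl/fl colon to 0.92 in knockout AOM+DSS colon. With the interferon-gamma response list C1qa, C1qb, C1qc and C4b had r of 0.405, 0.35, 0.377 and 0.354. Their adjusted permutation p values were 0.0108 to 0.0373 for r and 0.0186 to 0.0519 for rho. C2 also had an r of 0.39 with the macrophage list (rho 0.41, adjusted permutation p = 0.0131 and 0.0137). With the fibroblast list, C1qb and C1qc had r of 0.33 and 0.37 (adjusted permutation p = 0.0373 and 0.0108 for r, 0.0711 and 0.0137 for rho). Cfi had an r of -0.53 with the smooth muscle list (rho -0.51, adjusted permutation p = 0.0108 and 0.00373), and -0.51 without the 2 farthest. Within single groups it was -0.31 in fl/fl and -0.74 in knockout tumors. It was between -0.53 and -0.01 in the colon groups, where Cfi is not shown to be above background. With the Wnt target list, which separates tumors from colon as Cfi does, its r within groups was 0.19 (rho 0.17, adjusted permutation p = 0.417 and 0.436, and 0.20 without the 2 farthest).

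**Figure D4:**
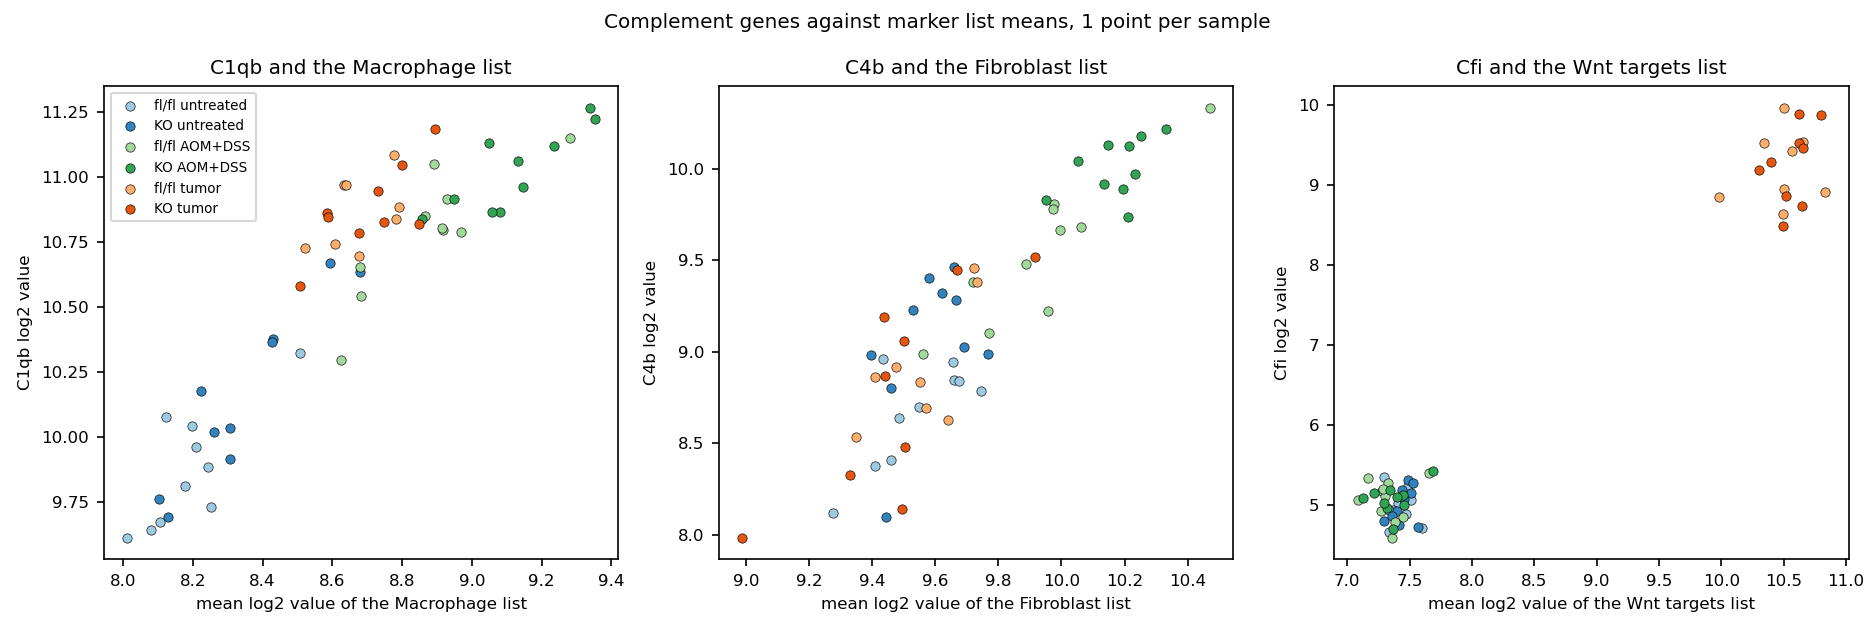
Log2 value of C1qb, C4b and Cfi (vertical axes) against the mean log2 value of the macrophage, fibroblast and Wnt target lists (horizontal axes), 1 point per sample, coloured by group. C1qb and C4b rise along their lists, while Cfi forms a colon cluster up to 5.41 and a tumor cluster from 8.49.

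The genes most alike were read by the same group-centred r over 57 arrays among 18552 genes. For C1qa they were Pld4 (0.85), Fcer1g (0.82), C1qb, Themis2 (0.78) and Itgb2 (0.76), for C1qb they were C1qa, Fcer1g, C1qc, Lgmn and Cd68, and for C1qc they were C1qb, Fcer1g, Ly86, the C3a receptor gene C3ar1 and C1qa. Each C1q gene thus had at least 1 other among its 5. For C4b they were Entpd1 (0.83), Heg1, Serping1, Tgfbr3 and Mrc1, and for Cd55 they were Lnpk (0.77), Mrc1, Lama4, Zbtb18 and Lrmp.

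For C2 the list was H2-DMb1 (0.65), Znfx1, Ubd, Ctsw and Gbp5, and for Cfb it was Gbp5 (0.64), Tap2, Csf2rb2, Sp110 and Znfx1, so both shared Gbp5, an interferon-induced GTPase, and Znfx1. For Cfi it was Alb (0.60), Onecut2 (0.58), Tm4sf4 (0.57), Serpind1 (0.57) and Gps1 (0.56), over arrays of which 40 are colon. Alb encodes serum albumin and Serpind1 heparin cofactor II, both plasma proteins.

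The wider complement system was read from 42 of 47 listed genes. After AOM+DSS 18 rose and 1 fell in fl/fl colon, and 21 rose and none fell in knockout colon, with median changes of 0.15 and 0.16 against -0.04 for all genes. Among all genes 12.2% rose and 10.5% fell in fl/fl colon, and 16% and 14.2% in knockout colon. The fl/fl count of falls was 4 with the arrays shifted to 1 median. All 9 receptor genes rose in both genotypes and under both other scalings.

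C3ar1, the receptor for the C3a fragment, rose by 1.09 ± 0.11 in each genotype (adjusted p = 1.24e-10 and 1e-11), from medians of 7.16 and 7.48 to 8.29 and 8.53 with no overlap. Itgb2, the shared chain of the complement receptors CR3 and CR4, rose by 1.05 ± 0.12 and 1.13 ± 0.12 with no overlap. Cr2, the complement receptor of B cells and follicular dendritic cells, rose by 1.46 ± 0.32 in fl/fl (adjusted p = 0.000457) and by 2.58 ± 0.32 in knockout colon (adjusted p = 3.65e-09). All 6 measured B cell markers rose too, and their part in the Cr2 change was not tested. Vsig4, a macrophage receptor for C3b, rose by 0.99 ± 0.16 in fl/fl colon and by 0.72 ± 0.16 in knockout colon. Itgam rose by 0.96 ± 0.13 in knockout colon, and in fl/fl colon its mean went from 7.345 to 8.233. Untreated group means of Cr2 (5.79 in fl/fl and 5.56 in knockout colon) and Vsig4 (5.41 and 5.72) lay below the median of every array. Those levels are not shown to be above background, so the rises of Cr2 and Vsig4 may be lower bounds. Colec11, a collectin of the lectin pathway, fell by 0.27 ± 0.096 in fl/fl colon (adjusted p = 0.0326). Its probe set had group means of 5.40 to 5.73, below the median of every array, and is not shown to be above background.

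Between tumors and AOM+DSS colon 4 of the 42 genes rose and 13 fell in fl/fl samples, and 3 rose and 19 fell in knockout samples, with medians of -0.06 and -0.15 against 0.02 and 0.00 for all genes. Among all genes 21% rose and 20.2% fell in fl/fl samples, and 21.5% and 21.4% in knockout samples. Clu, a soluble inhibitor of the membrane pore, rose by 1.32 ± 0.14 (2.50-fold) and 1.07 ± 0.13 (2.09-fold), with no overlap between tumors and colon of either genotype. C4bp, the fluid-phase cofactor with which factor I cuts the C4b fragment, rose by 0.52 ± 0.16 (adjusted p = 0.00574) and 0.83 ± 0.15 (adjusted p = 6.48e-06). Itgax rose by 0.68 ± 0.13 and 0.33 ± 0.13. The remaining call, C1s2 in fl/fl tumors, came from a probe set with group means of 3.32 to 3.60, not shown to be above background.

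Among the genes that fell, Vsig4 fell by 2.08 ± 0.17 in fl/fl tumors (adjusted p = 1.7e-15) and by 2.02 ± 0.17 in knockout tumors (adjusted p = 1.39e-15), with every tumor below every AOM+DSS colon. Cr2 fell by 1.91 ± 0.33 in fl/fl tumors and fell by 2.67 ± 0.32 in knockout tumors, and all 6 B cell markers fell in both genotypes. Cd59a, a membrane inhibitor of the terminal pore, fell by 1.58 ± 0.16 in fl/fl and 1.56 ± 0.15 in knockout tumors with no overlap. C7, a component of that pore, fell by 1.28 ± 0.17 in fl/fl tumors and fell by 1.74 ± 0.17 in knockout tumors. Mean Vsig4 was 4.32 in fl/fl and 4.42 in knockout tumors, Cr2 5.34 and 5.47, and C7 5.33 and 5.21. All lay below the median of every array and are not shown to be above background, so the falls of these genes may be lower bounds.

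By role, of 7 membrane inhibitors other than Cd55 none rose in tumors against AOM+DSS colon, 3 fell in fl/fl and 5 in knockout samples, where 20.2% and 21.4% of all genes fell. Cd59b, Cd55b and Csmd1, named for their low values, had group means of at most 5.35, 4.87 and 5.62. These lay below the median of every array and are not shown to be above background. The grouping by role was not tested. The 5 measured soluble inhibitors split, with 2 higher (Clu and C4bp) and 2 lower in each genotype. The lower pair, named after their values were seen, were Serping1, the inhibitor of C1, and Vtn. Smooth muscle and fibroblast markers fell in the same comparison, and their part in these falls was not tested.

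**Figure D5:**
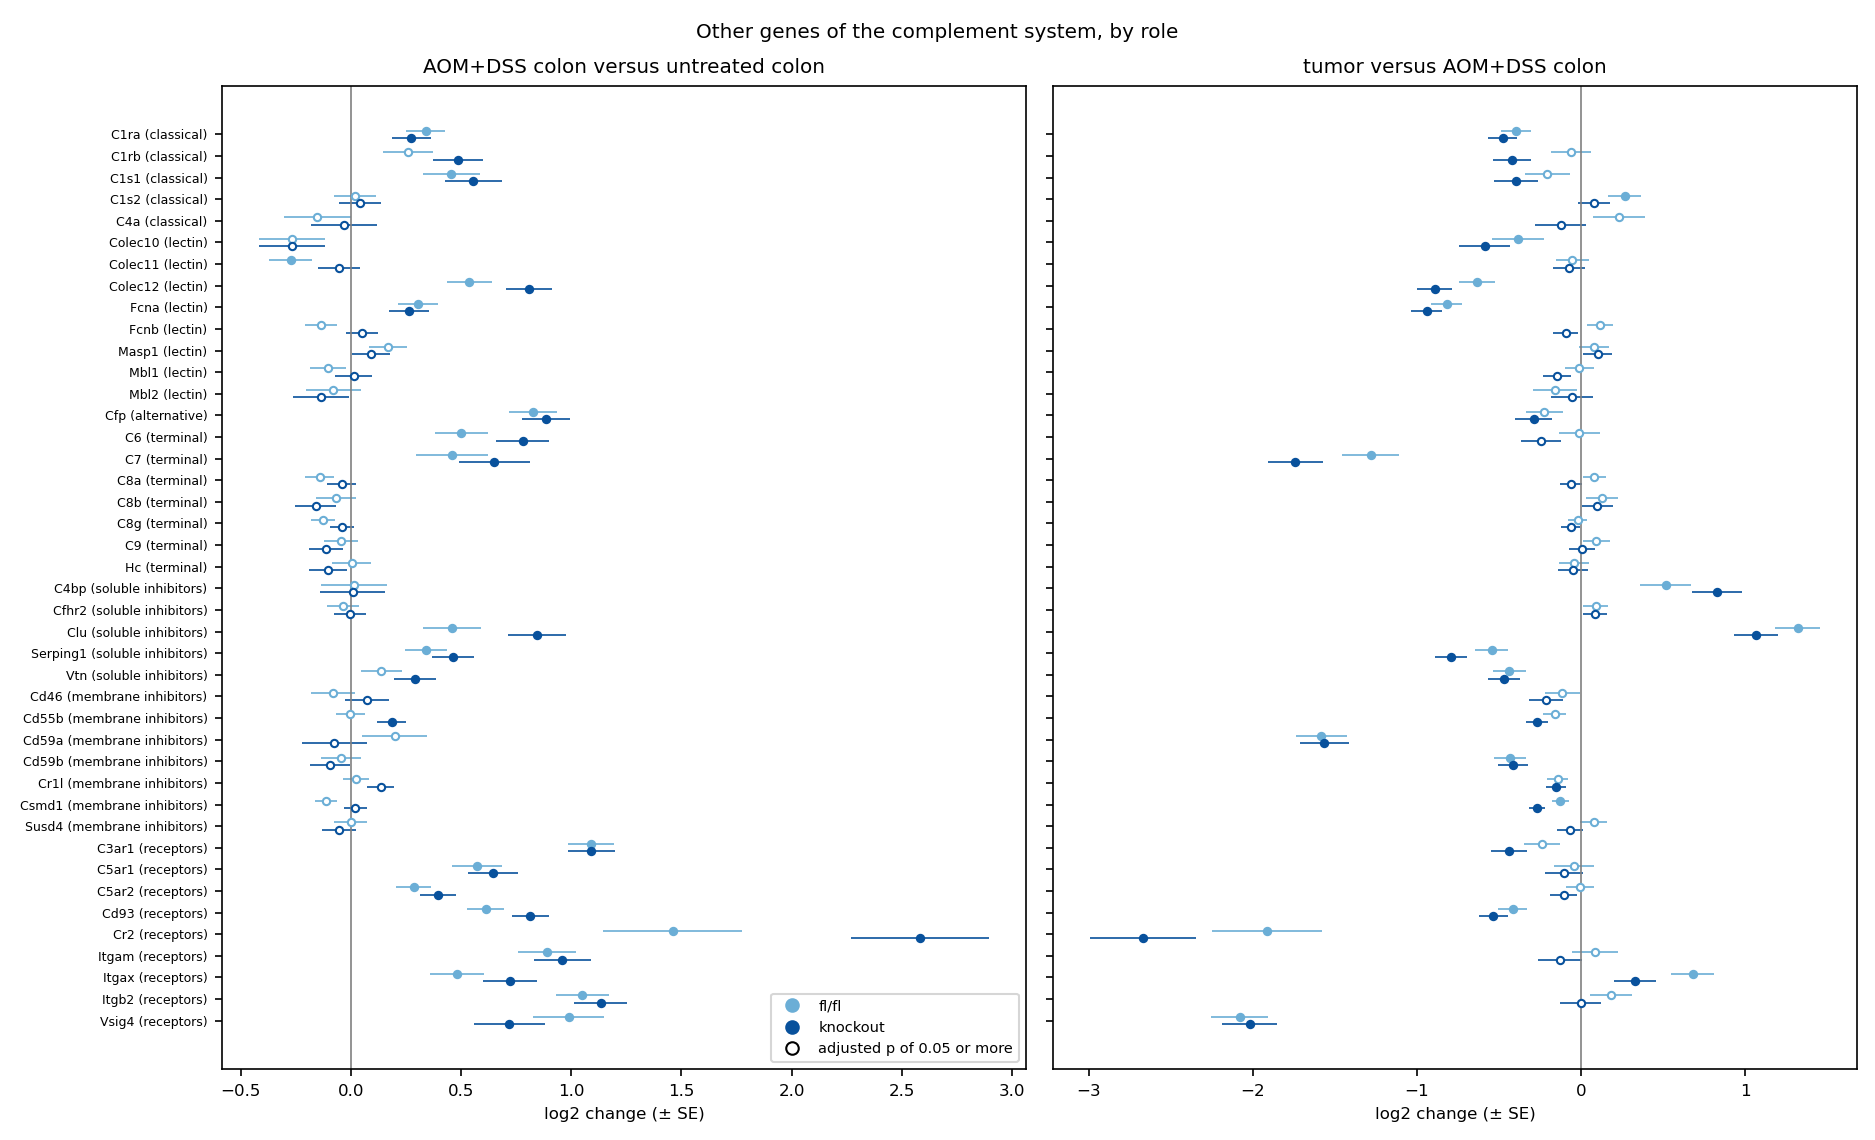
Log2 change ± SE (horizontal axis) of 42 other complement genes, ordered by role, after AOM+DSS (left) and between tumors and AOM+DSS colon (right), in fl/fl (light) and knockout (dark) samples; open circles did not pass an adjusted p of 0.05. All 9 receptors lie right of 0 after AOM+DSS, and in tumors Clu stands highest while Vsig4, Cr2, Cd59a and C7 stand lowest.

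Against untreated colon, 12 of the 42 genes were higher and 11 lower in fl/fl tumors, and 11 were higher and 8 lower in knockout tumors, where the shares of all genes were 22.9% and 22.5%, and 23.6% and 23.7%. Clu, Itgb2 and Itgax led the rises in both genotypes. Clu rose by 1.78 ± 0.14 in fl/fl and by 1.91 ± 0.13 in knockout tumors, 3.43-fold and 3.76-fold. Cd59a, which fell by 1.38 ± 0.16 and 1.64 ± 0.15, was the most reduced. No gene of this wider list was called between genotypes or in either interaction.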

How the data were processed

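Total RNA (250 ng) of 57 samples was labelled for whole-transcript Affymetrix arrays with the WT Plus kit, per the labels' protocols. The authors deposited log2 values from RMA (background correction, quantile normalization and probe summary), per the submitters' processing notes; the version is not given in the sources used here. A shared normalization of colon and tumors can shift all genes of an array, so other scalings were tried. Groups came from sample titles. Of 41345 probe sets, 23521 carry 1 gene symbol, 1814 several and 16010 none in the platform annotation; the brightest probe set of each of 22180 genes was kept. Which transcript parts a probe set covers was not examined.

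One limma (3.58.1, R 4.3.3) model with 6 group means and 51 residual degrees of freedom gave each difference, with two-sided p-values adjusted by Benjamini-Hochberg over all genes and called under 0.05; the method was tested on simulated data. The number of arrays limits the precision. Correlations used 100000 permutations within groups (Python 3.11.15, scipy 1.17.1). Named are all 8 genes read, the 5 genes most alike to each, up to 4 other complement genes called in each direction with the largest change, and up to 3 genes of a marker list with the smallest adjusted p; Epcam and Vil1 only illustrate their list. The members and lists were chosen with earlier results of these data known. Alternatives were scaling, a filter on low genes, averaged probe sets, fit options, array weights, a replicate block, marker list means as covariates and leaving out each sample. Gene positions and promoter sequences are RefSeq's on GRCm38.p6; promoters were held for 3 of the 8 genes, and protein sequences were not used. Of the list of 47 other complement genes, 5 are not analysed here.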

Additional observations from a re-analysis of the deposited data

Results flagged for a closer look

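In 4 of 48 combinations of a gene and a group, 1 sample stood far from the others of its group, where chance gives about 1 in 20 such groups. C1qa in fl/fl tumors was highest in replicate 1, at 9.95, with the next sample at 9.69. C1qc in untreated fl/fl colon was highest in replicate 4, at 8.39, with the next at 7.76; that sample also had the highest macrophage list mean of its group, 8.51. In untreated knockout colon replicate 2 was lowest for C4b, at 8.10 with the next at 8.80, and for Cd55, at 8.07 with the next at 8.69. The Cfb level of that sample, 9.17, was also the lowest of its group.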

How the results depend on the processing

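The 8 genes were refitted under 12 alternatives and with each sample left out. Counting the lowest and highest of the latter, 1097 of 1232 values kept their sign and side of the threshold, 33 lost a call, 19 gained one, and 83 changed sign, of which 71 were not called before or after. Scalings, fit options, the filter and the epithelium covariate left every count of called genes within 1.5 times the reported one. The other covariates did not, and of these the fibroblast and smooth muscle means were chosen after seeing the data. With the macrophage mean, 0 of 8 genes were called after AOM+DSS in either genotype, where 4 (fl/fl) and 6 (knockout) of all genes were. This covariate gave 7 calls among the 8 genes between fl/fl tumors and AOM+DSS colon, and 8788 among all genes. Under it 26 values changed sign, 16 of them never called; the other 10 were C1qc (-0.17), Cfb (-0.023) and Cd55 (-0.020) after AOM+DSS in fl/fl colon, C1qa (-0.06), C1qb (-0.072), C1qc (-0.30) and C2 (-0.14) in knockout colon, and C1qa (0.38), C1qb (0.35) and C1qc (0.33) between knockout tumors and AOM+DSS colon. With the fibroblast mean, 3 genes were called after AOM+DSS in each genotype and 1 between knockout tumors and AOM+DSS colon, where Cd55 turned to 0.066. Over all genes, 1358 (fl/fl) and 1636 (knockout) were called after AOM+DSS, and 5859 between knockout tumors and AOM+DSS colon. With the smooth muscle mean, 1 gene was called between tumors and AOM+DSS colon in each genotype, where C4b in fl/fl turned to 0.30. It gave 3 calls among the 8 genes between knockout tumors and untreated colon. Over all genes, 2268 (fl/fl) and 2422 (knockout) were called between tumors and AOM+DSS colon, and 3342 between knockout tumors and untreated colon. The cause of these shifts was not tested. Leaving out 1 sample gave 0 to 1 genes called between genotypes in AOM+DSS colon. Over all genes, that genotype comparison called 120, and between 2 and 485 under the alternatives. Deviations of same-numbered samples from their group means were correlated in 15 pairs of groups. The medians lay between -0.07 and 0.13, and single values between -0.33 and 0.33. Samples of different numbers were not compared, so whether the numbers pair samples was not settled. With a replicate block, 7 and 7 genes were called after AOM+DSS, 3 and 4 between tumors and AOM+DSS colon, and 6 and 5 between tumors and untreated colon. Over all genes, the calls in these comparisons were 5438 and 7071, 9254 and 9764, and 10291 and 10721.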
